A study of Mus musculus with 20 samples.

Results

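The MAP kinase phosphatases are dual-specificity phosphatases, encoded by Dusp genes, and 7 of them were followed here: Dusp1, Dusp2, Dusp4, Dusp5, Dusp6, Dusp10 and Dusp16. They were chosen by gene symbol, with earlier results of these data known. Each has 1 probe set among the 35556 of the array: 10449284 for Dusp1, 10475782 for Dusp2, 10571312 for Dusp4, 10463945 for Dusp5, 10366043 for Dusp6, 10352448 for Dusp10 and 10548735 for Dusp16. All 7 were above the filter on dim probe sets on all 20 arrays and are among the 11968 genes tested. Dusp7, Dusp8, Dusp9 and the atypical dual-specificity phosphatases, Dusp3 among them, were kept as comparison genes.

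The study followed splenic B cells of mice through stimulation of the B cell receptor with anti-IgM antibody at 10 µg/ml, in wild type cells and in cells deleted for TAK1, the MAP3 kinase encoded by Map3k7. RNA was hybridised to 20 arrays, 2 for each genotype at 0, 1, 3, 6 and 24 h. The wild type mice are labelled mb-1/TAK1+/+ and the deleted mice mb-1/TAK1f/f, so both genotypes carry the mb-1 element, mb-1 being the B-lineage gene Cd79a. The labels do not spell out the recombinase. All mice were C57BL/6, 8 to 12 weeks old and of both sexes. B cells were taken from spleen by removing CD43+ cells with magnetic beads and were kept in RPMI medium with 10% serum, and whether the 0 h cells were cultured is not stated. No label says whether the 2 arrays of a group came from separate mice or cultures. In the fit of all groups, a p-value rests on the spread between the 2 arrays of a group. That spread is estimated over all 10 groups together and drawn towards that of other genes. It is not the spread of the compared groups alone, and it may be technical only.

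A MAP kinase is switched on by phosphorylation of a threonine and a tyrosine in its activation loop, and MAP kinase phosphatases remove both phosphates. Many of these genes are themselves switched on by the pathways they limit, so their transcripts belong to the feedback that ends a signal. Dusp1, Dusp2, Dusp4 and Dusp5 encode inducible nuclear phosphatases, Dusp6 encodes a cytoplasmic phosphatase that acts on ERK, and the products of Dusp10 and Dusp16 act mainly on JNK and p38. The B cell receptor activates ERK, JNK and p38, and TAK1 is known as an upstream kinase of JNK, p38 and the NF-kB pathway.

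Promoter sequences were taken from RefSeq on mouse build GRCm38.p6 as the 250 bases before the annotated gene start. The table used here held 6 of the 7 genes; Dusp4 was not among them. Windows are printed for the 3 members that had a match to a motif marked in capitals. The windows of Dusp2 and Dusp10, which also rose at 1 h, and of Dusp6, which did not, had no such match. Capitals mark matches to the cyclic AMP response element (CRE) TGACGTCA, its short core TGACG, the SRF CArG box or the heat shock element pair GAANNTTC. Dusp1 lies on the minus strand at chr17:26508473-26508722, Dusp5 on the plus strand at chr19:53528895-53529144 and Dusp16 on the minus strand at chr6:134792629-134792878.
Dusp1: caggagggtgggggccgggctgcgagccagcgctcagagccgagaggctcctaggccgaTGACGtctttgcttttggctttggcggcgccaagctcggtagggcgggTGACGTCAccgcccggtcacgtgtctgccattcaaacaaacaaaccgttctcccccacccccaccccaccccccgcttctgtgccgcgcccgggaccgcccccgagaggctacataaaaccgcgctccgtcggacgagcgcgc
Dusp5: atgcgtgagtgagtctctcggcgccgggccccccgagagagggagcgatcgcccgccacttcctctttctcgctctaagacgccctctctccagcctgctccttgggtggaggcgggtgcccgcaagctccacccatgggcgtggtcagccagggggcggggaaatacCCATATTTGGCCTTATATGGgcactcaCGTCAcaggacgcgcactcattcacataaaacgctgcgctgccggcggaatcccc
Dusp16: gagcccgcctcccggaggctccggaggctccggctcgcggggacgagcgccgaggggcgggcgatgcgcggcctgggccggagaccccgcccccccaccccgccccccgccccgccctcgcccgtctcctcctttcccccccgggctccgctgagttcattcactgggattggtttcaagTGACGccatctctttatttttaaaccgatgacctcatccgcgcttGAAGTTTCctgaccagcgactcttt

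Dusp1 carried the whole CRE at position -143 from the start and a further core at -191. Dusp5 carried 2 adjoining CArG boxes at -82 and -72 and a core on the opposite strand at -55, which reads CGTCA in the printed strand. Dusp16 carried a core at -70 and the heat shock pair at -25. Both strands of 32851 windows of 250 bases were searched in the same way. The CRE was found in 1.55% of them, the core, which lies within the CRE, in 17.8%, the CArG box in 1.47% and the heat shock pair in 6.69%. The E-box CACGTG, in 6.02% of windows, was present in Dusp1 and Dusp2. The GC box GGGCGG, in 32.7% of windows, was present in 5 of the 6 members, all but Dusp6. The AP-1 site TGANTCA (6.75% of windows), the TATA box TATAAA (12.4%) and the NF-kB site (3.9%) had no match in the 6 windows. A match is a stretch of letters and was not tested for binding.

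The values are log2 RMA signals, on which a difference of 1 is a 2-fold change, and levels of different probe sets were not compared. Replicate arrays correlated at 0.979 to 0.994 across genes and array medians lay between 7.37 and 7.52. Map3k7 read 10.16 to 10.76 on all arrays and was not lower in those labelled TAK1-deleted (0.30 ± 0.14 SE higher at 1 h, adjusted p = 0.369, or 0.0209 with the replicate number as a block). Where in Map3k7 the deletion lies is not in the labels, and probe positions were not analysed, so its signal does not check the genotype, which is that of the labels throughout. Cd79a read at least 12.0 and Ms4a1, the CD20 gene, at least 11.67 on every array. Markers of other cells were also present: no gene of the macrophage, neutrophil, T cell or erythroid lists was below the filter on all arrays. In bulk RNA, fewer cells of a type and less RNA per cell cannot be told apart.

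At 1 h of anti-IgM, 6 of the 7 phosphatase transcripts had risen in wild type B cells and Dusp6 had not. They parted afterwards. Dusp1, Dusp2, Dusp10 and Dusp16 fell back within 3 h, Dusp5 stayed high to 6 h, Dusp4 stayed high to 24 h, and Dusp6 fell from 3 h onward. Against 0 h, 6 members rose and 0 fell at 1 h, 4 rose and 1 fell at 3 h, 2 rose and 1 fell at 6 h, and 1 rose and 3 fell at 24 h. In that order, 24.5%, 44.1%, 43.2% and 43.8% of all genes tested were called, a called gene being one with a limma p under 0.05 after Benjamini-Hochberg adjustment over all genes. The members' median change at 1 h was 2.19 against -0.05 over all genes, and at 24 h it was -0.28 against 0.07. Because the members were chosen with earlier results of these data known, these counts and medians are descriptions only. The 3 MAP kinase phosphatases outside the set, Dusp7, Dusp8 and Dusp9, had a median change of 0.10 at 1 h, but they did not move together. Dusp8 rose by more than any member, from a dim start, Dusp7 fell, and the median is the value of Dusp9. It therefore does not describe the 3 as a group. The 4 comparisons share the same 2 arrays of 0 h.

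Same-numbered arrays deviated together, so a fit with the replicate number as a block was set beside each result of a member whose call it changed. For the comparison lists its counts are given in part, and for the cell markers they are not given. Some member results that passed with the block also passed after quantile normalization or in other alternative fits. Those values are given in part. With the block, 43.2%, 59.0%, 57.1% and 58.2% of all genes were called at 1, 3, 6 and 24 h in wild type, and the members became 6 up and 1 down, 4 up and 1 down, 3 up and 3 down, and 1 up and 4 down.

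**Figure D1:**
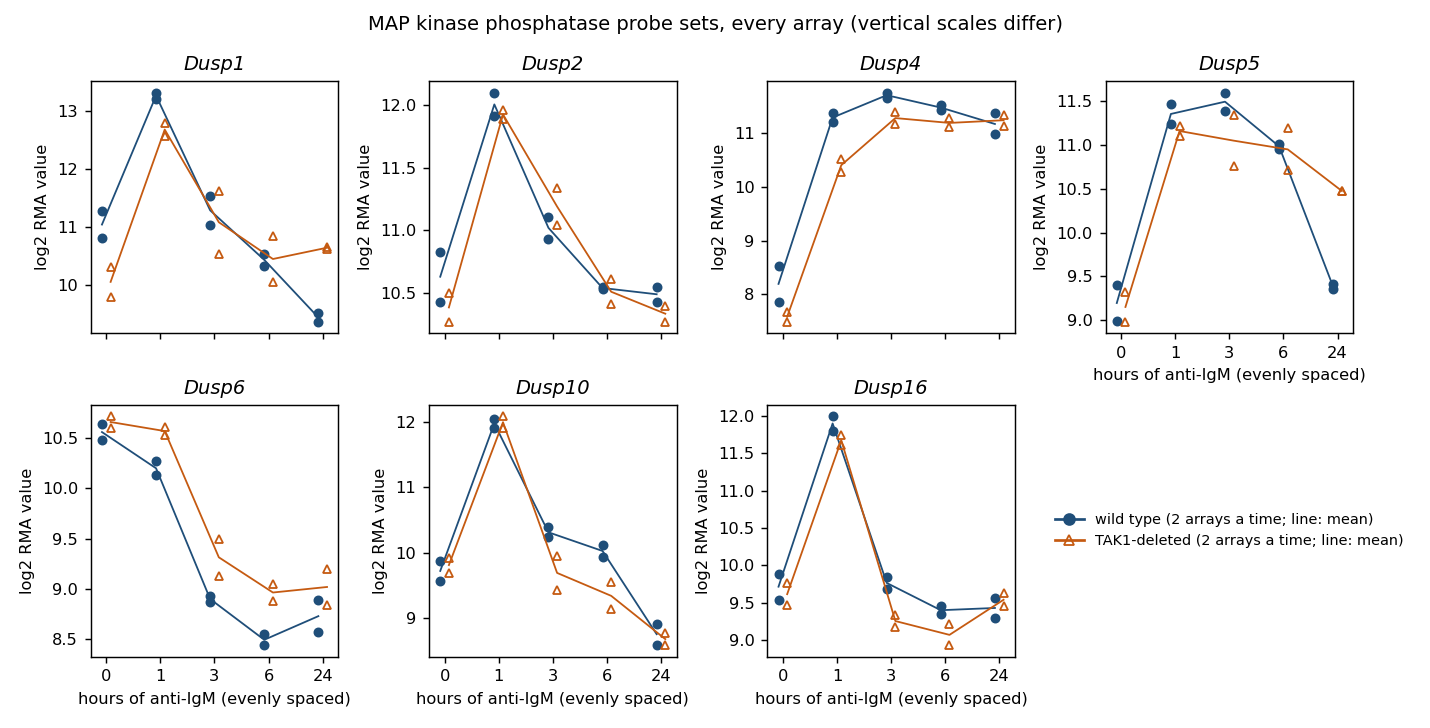
Log2 RMA value (vertical axis, a separate scale in each panel) of the 7 MAP kinase phosphatase probe sets against hours of anti-IgM (0, 1, 3, 6 and 24 h, evenly spaced) on each of 20 arrays, with lines through the mean of the 2 arrays of a group. Dusp1 and Dusp5 at 24 h show both TAK1-deleted arrays (10.62 and 10.66 for Dusp1) above both wild type arrays (9.36 and 9.51), and Dusp6 is the member whose own mean was higher at 0 h than at each later time in both genotypes.

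Dusp1, whose product acts on p38, JNK and ERK, read 11.27 and 10.81 on the wild type arrays at 0 h, 13.32 and 13.21 at 1 h, 11.53 and 11.04 at 3 h, 10.53 and 10.33 at 6 h, then 9.51 and 9.36 at 24 h. The order of the levels was therefore 1, 3, 0, 6 and 24 h, with the arrays of 3 h and 0 h overlapping and each other neighbouring pair apart. It rose 4.67-fold at 1 h (2.22 ± 0.30 log2, SE, adjusted p = 4.75e-05), and by 24 h it was 3.04-fold below its own start (-1.61 ± 0.30, adjusted p = 0.000429). At 6 h the difference from 0 h was -0.61 (adjusted p = 0.123, or 0.0055 with the block). It also passed after quantile normalization (adjusted p = 0.031) and in the fit on the groups of the contrast only (0.00295).

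On the TAK1-deleted arrays Dusp1 read 10.31 and 9.79 at 0 h, 12.79 and 12.57 at 1 h, 11.62 and 10.54 at 3 h, 10.84 and 10.05 at 6 h, then 10.66 and 10.62 at 24 h. It started lower than in wild type, peaked at the same time and, unlike in wild type, ended above both of its 0 h arrays. The rise at 1 h was 6.17-fold (2.63 ± 0.30, adjusted p = 1.17e-05). At 3 h it was still 2.04-fold above 0 h (1.03 ± 0.30, adjusted p = 0.0122), but its 2 arrays lay 1.08 apart, and without replicate 1 of that group the difference was 0.49 (adjusted p = 0.217) and without replicate 2 of 0 h 0.77 (adjusted p = 0.119). At 24 h it stood 0.59 ± 0.30 above 0 h (adjusted p = 0.18, or 0.00997 with the block).

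Dusp2 encodes a nuclear phosphatase of haematopoietic cells. In wild type it read 10.83 and 10.43 at 0 h, 12.10 and 11.91 at 1 h, 11.11 and 10.93 at 3 h, 10.53 and 10.55 at 6 h, then 10.55 and 10.43 at 24 h. It rose 2.59-fold at 1 h (1.37 ± 0.15, adjusted p = 4.73e-06), and both arrays of 1 h lay above all other wild type arrays. The arrays of 6 h and 24 h overlapped those of 0 h. Its change at 3 h, 0.39 ± 0.15 (adjusted p = 0.045), did not hold under several settings. With all arrays kept, its adjusted p was 0.0734 after centring each array on its median, 0.0659 with no filter on dim probe sets and 0.0985 in the fit on the groups of the contrast only. The change was 0.19 without replicate 2 of 0 h (adjusted p = 0.382), 0.30 without replicate 1 of 3 h (0.232) and 0.48 without replicate 2 of 3 h (0.0574).

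The TAK1-deleted arrays gave Dusp2 values of 10.50 and 10.27 at 0 h, 11.96 and 11.89 at 1 h, 11.34 and 11.04 at 3 h, 10.61 and 10.41 at 6 h, then 10.40 and 10.27 at 24 h. The rise was 2.91-fold at 1 h (1.54 ± 0.15, adjusted p = 1.88e-06) and 1.75-fold at 3 h (0.81 ± 0.15, adjusted p = 0.000387), and at 6 and 24 h the arrays overlapped those of 0 h. Among the 6 members that rose at 1 h, its log2 change was the lowest in both genotypes.

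Dusp4, which encodes a nuclear phosphatase of ERK and JNK, rose most and stayed up. Its wild type values were 8.53 and 7.86 at 0 h, 11.37 and 11.20 at 1 h, 11.75 and 11.65 at 3 h, 11.52 and 11.42 at 6 h, then 11.36 and 10.97 at 24 h. All 8 stimulated arrays lay above both arrays of 0 h, the latter 0.67 apart, and the levels ran 3, 6, 1, 24 and 0 h, those of 1 h and 24 h overlapping. The change was 8.49-fold at 1 h (3.09 ± 0.19, adjusted p = 8.41e-09), 11.3-fold at 3 h (3.50 ± 0.19, 1.87e-09), 9.66-fold at 6 h (3.27 ± 0.19, 3.1e-09) and 7.82-fold at 24 h (2.97 ± 0.19, 7.04e-09). Counted from the highest increase, it ranked 36, 12, 9 and 10 of the 11968 genes at those times.

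In TAK1-deleted cells Dusp4 read 7.68 and 7.49 at 0 h, 10.52 and 10.28 at 1 h, 11.39 and 11.16 at 3 h, 11.27 and 11.10 at 6 h, then 11.34 and 11.13 at 24 h. The values of 3, 6 and 24 h overlapped one another and lay above those of 1 h. Both values of 0 h lay close to 7.45, the filter on dim probe sets, so the changes from 0 h start from a dim signal. Dusp4 had risen 7.05-fold at 1 h (2.82 ± 0.19, adjusted p = 3.71e-08), 13-fold at 3 h (3.70 ± 0.19, 1.1e-09), 12.2-fold at 6 h (3.60 ± 0.19, 1.38e-09) and 12.6-fold at 24 h (3.65 ± 0.19, 1.82e-09), ranks 36, 7, 5 and 3. Between 1 h and 3 h it went on rising by 0.88 ± 0.19 (adjusted p = 0.00241), where the wild type step was 0.42 ± 0.19 (adjusted p = 0.105, or 0.00365 with the block).

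Dusp5, a nuclear phosphatase specific for ERK, read 9.40 and 8.99 in wild type at 0 h, 11.47 and 11.24 at 1 h, 11.60 and 11.39 at 3 h, 10.96 and 11.01 at 6 h, then 9.41 and 9.35 at 24 h. The arrays of 1 h and 3 h overlapped, those of 6 h lay below them, and those of 24 h overlapped those of 0 h. It rose 4.46-fold at 1 h (2.16 ± 0.20, adjusted p = 8.06e-07), 4.93-fold at 3 h (2.30 ± 0.20, 1.84e-07) and 3.46-fold at 6 h (1.79 ± 0.20, 2.37e-06). At 24 h the difference was 0.19 ± 0.20 (adjusted p = 0.489), after a fall of 1.60 ± 0.20 from 6 h (adjusted p = 2.51e-05).

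Dusp5 on the TAK1-deleted arrays was 9.32 and 8.98 at 0 h, 11.22 and 11.10 at 1 h, 11.34 and 10.76 at 3 h, 11.19 and 10.71 at 6 h, then 10.47 and 10.48 at 24 h. The arrays of 1, 3 and 6 h overlapped and those of 24 h lay between them and 0 h. It rose 4.04-fold at 1 h (2.01 ± 0.20, adjusted p = 2.28e-06), 3.75-fold at 3 h (1.91 ± 0.20, 1.58e-06) and 3.49-fold at 6 h (1.80 ± 0.20, 3.34e-06), and it was still 2.51-fold up at 24 h (1.33 ± 0.20, 0.000109). The step from 6 to 24 h was -0.48 ± 0.20 (adjusted p = 0.118, or 0.00623 with the block).

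Dusp6, the cytoplasmic phosphatase of ERK, went the other way. Wild type values were 10.64 and 10.48 at 0 h, 10.27 and 10.13 at 1 h, 8.87 and 8.93 at 3 h, 8.55 and 8.44 at 6 h, then 8.89 and 8.57 at 24 h. Both arrays of 1 h lay below both of 0 h, by -0.37 ± 0.16 in the mean (adjusted p = 0.107, or 0.00806 with the block and 0.0242 after quantile normalization). It then fell 3.18-fold from 0 h by 3 h (-1.67 ± 0.16, adjusted p = 4.55e-07), 4.19-fold by 6 h (-2.07 ± 0.16, 4.76e-08) and 3.56-fold by 24 h (-1.83 ± 0.16, 1.65e-07). The order was 0, 1, 3, 24 and 6 h, with 3 h and 24 h overlapping.

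In TAK1-deleted cells Dusp6 read 10.72 and 10.60 at 0 h, 10.61 and 10.53 at 1 h, 9.50 and 9.13 at 3 h, 9.05 and 8.88 at 6 h, then 9.20 and 8.84 at 24 h. The arrays of 0 h and 1 h overlapped (-0.08 ± 0.16, adjusted p = 0.797). The later falls were 2.54-fold at 3 h (-1.34 ± 0.16, adjusted p = 4.87e-06), 3.24-fold at 6 h (-1.69 ± 0.16, 5.45e-07) and 3.12-fold at 24 h (-1.64 ± 0.16, 1.07e-06).

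Dusp10, which encodes a phosphatase of JNK and p38, read 9.88 and 9.57 in wild type at 0 h, 12.04 and 11.91 at 1 h, 10.39 and 10.24 at 3 h, 10.12 and 9.94 at 6 h, then 8.92 and 8.60 at 24 h. Each time stood apart from every other, in the order 1, 3, 6, 0 and 24 h. It rose 4.75-fold at 1 h (2.25 ± 0.19, adjusted p = 2.85e-07) and was 1.95-fold below its start at 24 h (-0.97 ± 0.19, 0.000589). The rise left at 3 h, 0.59 ± 0.19 (adjusted p = 0.0188), became 0.51 without replicate 1 of 3 h (adjusted p = 0.112) and 0.43 without replicate 2 of 0 h (0.152). At 6 h it was 0.30 (adjusted p = 0.228, or 0.0135 with the block).

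For Dusp10 the TAK1-deleted arrays gave 9.93 and 9.70 at 0 h, 12.09 and 11.90 at 1 h, 9.95 and 9.44 at 3 h, 9.55 and 9.14 at 6 h, then 8.78 and 8.59 at 24 h. The rise at 1 h was 4.52-fold (2.18 ± 0.19, adjusted p = 5.64e-07) and the fall at 24 h 2.19-fold (-1.13 ± 0.19, 0.00029). By 3 h the arrays already spanned those of 0 h (-0.12 ± 0.19, adjusted p = 0.664). At 6 h both lay below 0 h, by -0.47 (adjusted p = 0.0643, or 0.000482 with the block, 0.00458 after quantile normalization, and -0.68 with 0.0343 without replicate 1 of 6 h).

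Dusp16, whose product acts on JNK and p38 and shuttles between nucleus and cytoplasm, was back near its start by 3 h. In wild type it was 9.89 and 9.54 at 0 h, 12.00 and 11.80 at 1 h, 9.84 and 9.69 at 3 h, 9.45 and 9.35 at 6 h, then 9.57 and 9.29 at 24 h. It rose 4.55-fold at 1 h (2.19 ± 0.16, adjusted p = 6.1e-08), and the 3 h arrays lay within the range of 0 h (0.05 ± 0.16, adjusted p = 0.816). At 6 and 24 h it read -0.31 and -0.28 against 0 h (adjusted p = 0.135 and 0.175, or 0.00505 and 0.00995 with the block).

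In TAK1-deleted cells Dusp16 read 9.76 and 9.47 at 0 h, 11.74 and 11.61 at 1 h, 9.34 and 9.17 at 3 h, 9.21 and 8.93 at 6 h, then 9.63 and 9.45 at 24 h. It rose 4.17-fold at 1 h (2.06 ± 0.16, adjusted p = 1.61e-07), and the arrays of 3 and 6 h lay below both of 0 h. The fall at 6 h was -0.54 ± 0.16 (adjusted p = 0.0144), which became -0.40 without replicate 1 of 0 h (adjusted p = 0.139) and -0.41 without replicate 2 of 6 h (0.146). At 3 h it was -0.36 (adjusted p = 0.0887, or 0.00183 with the block).

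**Figure D2:**
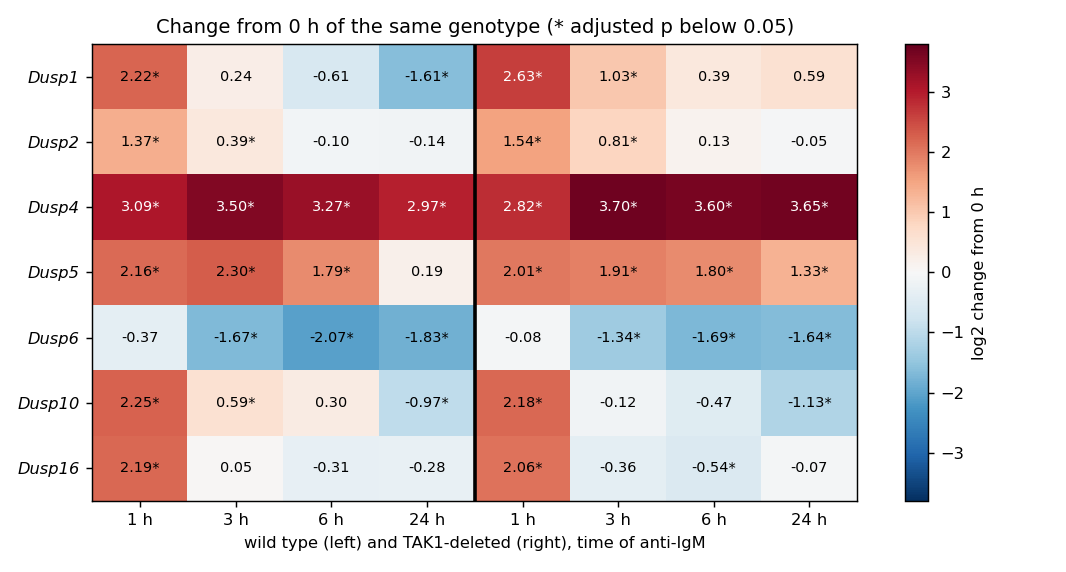
Log2 change from 0 h of the same genotype for each member (rows) at 1, 3, 6 and 24 h of anti-IgM, wild type on the left and TAK1-deleted on the right, as colour and number, with an asterisk where the adjusted p is below 0.05 without the block. In both genotypes 6 of the 7 members rose at 1 h, Dusp4 stayed up at every time, and Dusp6 fell from 3 h; at 24 h Dusp1 reads -1.61 in wild type and 0.59 in TAK1-deleted cells.

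Counted over members in TAK1-deleted cells, 6 rose and 0 fell at 1 h, 4 rose and 1 fell at 3 h, 2 rose and 2 fell at 6 h, and 2 rose and 2 fell at 24 h, where 19.3%, 41.7%, 35.8% and 27.6% of all genes were called. With the block these became 6 and 0, 4 and 2, 2 and 3, and 3 and 2, against 36.3%, 56.3%, 52.1% and 44.6% of all genes.

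The steps between neighbouring times show when the transcripts turned. From 1 to 3 h, 5 members fell in wild type: Dusp16 by 2.13 ± 0.16 (adjusted p = 1.53e-07), Dusp1 by 1.98 ± 0.30 (0.000105), Dusp10 by 1.66 ± 0.19 (7.05e-06), Dusp6 by 1.30 ± 0.16 (1.2e-05) and Dusp2 by 0.98 ± 0.15 (9.87e-05). The same 5 fell in TAK1-deleted cells, Dusp16 by 2.42 ± 0.16 (adjusted p = 6.67e-08), Dusp10 by 2.30 ± 0.19 (4.94e-07), Dusp1 by 1.60 ± 0.30 (0.000838), Dusp6 by 1.26 ± 0.16 (2.27e-05) and Dusp2 by 0.73 ± 0.15 (0.00146). Of all genes, 36.1% were called in this step in wild type and 32.6% in TAK1-deleted cells (51.9% and 47.9% with the block).

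From 3 to 6 h limma called 0 members in wild type, where 8.71% of all genes were called and 5 members had an unadjusted p under 0.05, but with the block 6 fell, all but Dusp4, among 25.9% of all genes. Their adjusted p then ran from 0.000605 for Dusp2 to 0.0378 for Dusp10, and without the block Dusp2 was nearest to the threshold (-0.48, adjusted p = 0.0566). After quantile normalization Dusp1, Dusp2, Dusp5, Dusp6 and Dusp16 also passed in this wild type step, where 1738 genes were called. In TAK1-deleted cells Dusp2 fell by 0.68 ± 0.15 in this step (adjusted p = 0.0124, 6.08% of all genes called), though its fall was 0.53 without replicate 1 of 3 h (adjusted p = 0.103) and 0.58 without replicate 2 of 6 h (0.117), and with all arrays kept its adjusted p was 0.152 in the fit on the groups of the contrast only. The block added Dusp1, Dusp6 and Dusp10 to it, among 20.8% of all genes. Without replicate 2 of 3 h the Dusp1 step was -1.17 (adjusted p = 0.0452) in place of -0.64 (0.276).

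From 6 to 24 h, Dusp5, Dusp10 and Dusp1 fell in wild type by 1.60, 1.27 ± 0.19 (adjusted p = 0.000152) and 1.00 ± 0.30 (0.0296), where 19.4% of all genes were called (38.0% with the block, which added Dusp4 at -0.30). The Dusp1 step missed the threshold without any 1 of its 4 arrays: it was -0.90 without replicate 1 of 6 h (adjusted p = 0.18), -1.10 without replicate 2 of 6 h (0.0805), -1.08 without replicate 1 of 24 h (0.0812) and -0.92 without replicate 2 of 24 h (0.145). In TAK1-deleted cells Dusp10 fell by 0.66 ± 0.19 (adjusted p = 0.0218, 18.9% of all genes called). That step was -0.46 without replicate 1 of 6 h (adjusted p = 0.225), -0.76 without replicate 1 of 24 h (0.0546) and -0.57 without replicate 2 of 24 h (0.16). With all arrays kept it was -0.61 after centring each array on its median (adjusted p = 0.0722). With the block, among 35.7% of all genes, Dusp5 also fell and Dusp16 rose by 0.47 (adjusted p = 0.0529 without the block and 0.000314 with it).

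Set against wild type at the same time, TAK1-deleted cells had less Dusp4 at 1 h and more Dusp1 and Dusp5 at 24 h. The limma fit called 0 members at 0, 3 and 6 h, where 2, 5 and 2 had an unadjusted p under 0.05. The counts were 0 of 7 at 0 h (2.32% of all genes called), 1 at 1 h (4.28%), 0 at 3 h (2.71%), 0 at 6 h (2.53%) and 2 at 24 h (12.2%). With the block they were 2, 3, 5, 3 and 3, against 6.99%, 12.9%, 8.31%, 12.2% and 28.8% of all genes.

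Dusp4 at 1 h was 1.84-fold lower in TAK1-deleted cells (-0.88 ± 0.19, adjusted p = 0.0135), with both arrays, 10.52 and 10.28, below the wild type pair of 11.37 and 11.20. Without replicate 1 of wild type at 1 h the difference was -0.80 (adjusted p = 0.126), and without replicate 2 of TAK1-deleted cells at 1 h it was -0.76 (0.123). Its level was already lower at 0 h, by -0.62 ± 0.19 (adjusted p = 0.143, or 0.00113 with the block, 0.0271 after quantile normalization, and -0.95 with 0.0158 without replicate 2 of wild type at 0 h). The TAK1-deleted values of 0 h, 7.68 and 7.49, lay close to the filter of 7.45 on dim probe sets. The gap was -0.42 at 3 h (adjusted p = 0.472, or 0.0208 with the block), -0.28 at 6 h and 0.07 at 24 h. The change from 0 to 1 h did not pass the test of a difference between genotypes (-0.27 ± 0.27, adjusted p = 1).

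Dusp1 was 2.3-fold higher in TAK1-deleted cells at 24 h (1.20 ± 0.30, adjusted p = 0.0162), with 10.66 and 10.62 against 9.51 and 9.36. The direction and size held without each array in turn, but the call did not: without wild type replicate 1 of 24 h the difference was 1.28 (adjusted p = 0.0717), without replicate 2 it was 1.12 (0.0843), and without TAK1-deleted replicate 1 or 2 of 24 h it was 1.18 (0.0928) and 1.22 (0.0851). At 0 h the sign was the opposite: 10.31 and 9.79 against 11.27 and 10.81, a difference of -0.99 ± 0.30 (adjusted p = 0.131, or 0.000832 with the block, 0.0447 after quantile normalization). At 1 h it was -0.59 (adjusted p = 0.436, or 0.0301 with the block), and at 3 and 6 h the arrays of the genotypes overlapped.

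Dusp5 was 2.13-fold higher in TAK1-deleted cells at 24 h (1.09 ± 0.20, adjusted p = 0.00185), with 10.47 and 10.48 against 9.41 and 9.35. The call held without each of its 4 arrays in turn. At 0, 1 and 6 h the differences were -0.05, -0.19 and -0.04, with adjusted p of 0.827 or more, and at 3 h it was -0.44 (adjusted p = 0.464, or 0.0356 with the block).

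Dusp6, Dusp10 and Dusp16 did not pass between genotypes in the fit without the block, and passed at some times under other settings. Dusp6 read higher in TAK1-deleted cells by 0.38 at 1 h (adjusted p = 0.275, or 0.0217 with the block), 0.42 at 3 h (without and with the block, 0.287 and 0.0154), 0.47 at 6 h (without and with the block, 0.177 and 0.00589) and 0.29 at 24 h (without and with the block, 0.299 and 0.048). Dusp10 read lower by -0.62 at 3 h (adjusted p = 0.127, or 0.000269 with the block, and -0.88 with 0.044 without TAK1-deleted replicate 1 of 3 h) and by -0.68 at 6 h (without and with the block, 0.0767 and 0.000106). Dusp16 read lower by -0.51 at 3 h (adjusted p = 0.143, or 0.00062 with the block) and -0.33 at 6 h (without and with the block, 0.418 and 0.0184). After quantile normalization, Dusp10 passed at 3 h (adjusted p = 0.00936) and 6 h (0.0104), Dusp16 at 3 h (0.00246) and Dusp6 at 6 h (0.0236). Dusp2 lay between -0.25 and 0.17 at the 5 times and was called in neither fit.

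**Figure D3:**
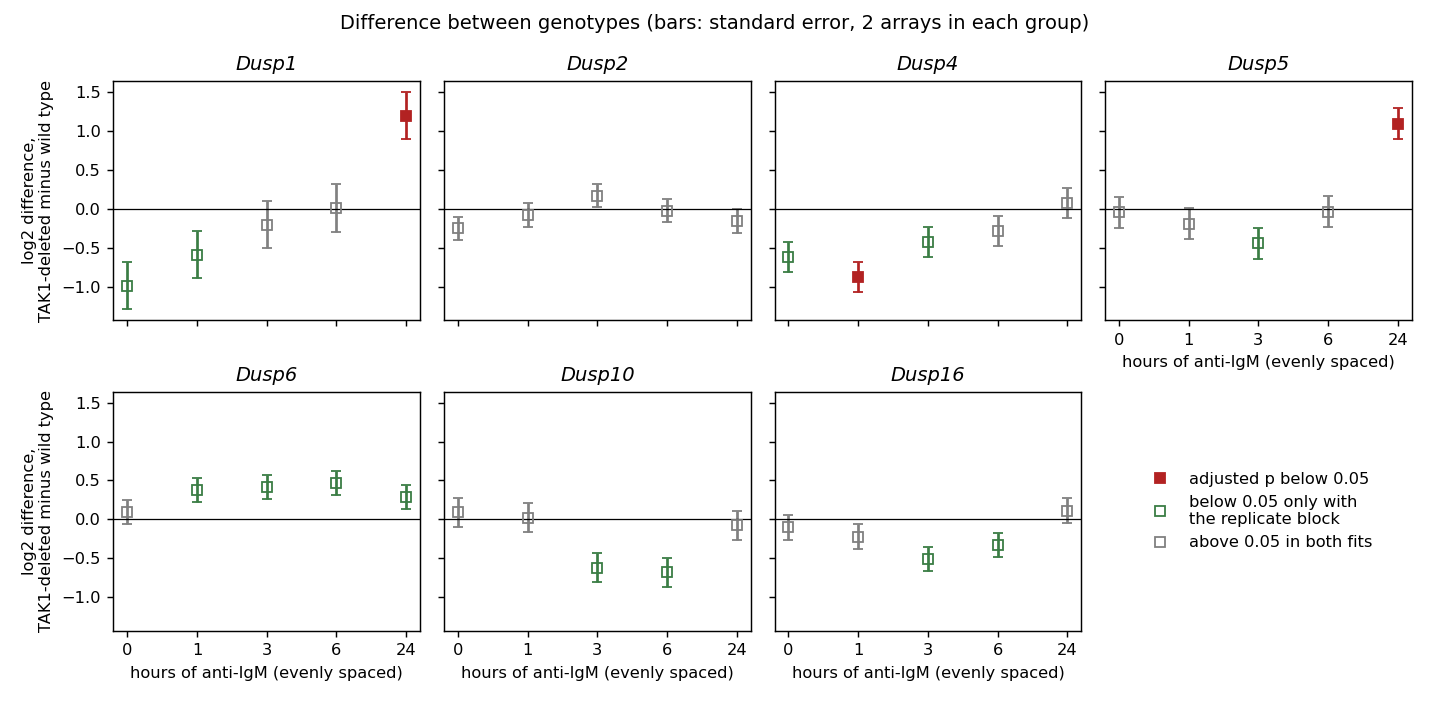
Log2 difference between genotypes at the same time, TAK1-deleted minus wild type (vertical axis), for each member at 0, 1, 3, 6 and 24 h of anti-IgM (evenly spaced), with bars of 1 standard error from the fit over 2 arrays in each group; colour marks which fit passed an adjusted p of 0.05. Dusp1 crosses from -0.99 at 0 h to 1.20 at 24 h, Dusp5 stands out at 24 h with 1.09, and Dusp2 stays near 0.

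The test of the difference itself, the change from 0 h in TAK1-deleted cells minus that in wild type, called 0 members at 1, 3 and 6 h, where 0, 1 and 2 had an unadjusted p under 0.05 by limma, and 2 at 24 h. Of all genes, 0.109%, 0.0585%, 0.284% and 8.66% were called at those times (0.752%, 1.95%, 6.45% and 22.0% with the block, which called 0, 1, 2 and 3 members). At 24 h Dusp1 differed by 2.19 ± 0.43 (adjusted p = 0.00396): it fell by 1.61 in wild type and read 0.59 above 0 h in TAK1-deleted cells. Dusp5 differed by 1.14 ± 0.28 (adjusted p = 0.0175), 0.19 in wild type against a rise of 1.33.

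The Dusp5 value at 24 h missed the threshold without 5 of its 8 arrays: it was 0.94 without wild type replicate 1 of 0 h (adjusted p = 0.0872), 0.97 without TAK1-deleted replicate 2 of 0 h (0.0807), 1.11 without wild type replicate 2 of 24 h (0.0516), and 1.15 and 1.13 without TAK1-deleted replicate 1 or 2 of 24 h (0.0539 and 0.0621). Dusp4 differed by 0.69 at 24 h (adjusted p = 0.156, or 0.0034 with the block and 0.0244 after quantile normalization). Without wild type replicate 2 of 0 h the Dusp4 difference was 1.02. The Dusp4 difference rests in part on the dim TAK1-deleted values of 0 h. With the block Dusp10 differed by -0.71 at 3 h (adjusted p = 0.00912, or 0.703 without the block) and -0.77 at 6 h (with and without the block, 0.00231 and 0.326), and Dusp1 by 1.00 at 6 h (with and without the block, 0.0201 and 0.504).

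Cell markers moved with these differences. At 24 h, 9 of 11 monocyte or macrophage genes and 8 of 8 neutrophil genes were higher in TAK1-deleted cells, as were 4 of 9 T cell, 3 of 7 dendritic cell, 3 of 4 platelet and 2 of 9 pan B genes. The share of all genes called at that time, in either direction, was 12.2% (28.8% with the block). The log2 of the summed macrophage level was 13.93 to 14.10 against 12.43 to 12.54 in wild type, that of the neutrophil list 13.02 to 13.06 against 10.74 to 10.78, that of the platelet list 10.74 to 10.75 against 9.62 to 9.63, and that of the pan B list 15.76 to 15.80 against 15.66 to 15.70. At 0 h, 0 of 11 macrophage genes were called (14.84 to 14.92 against 14.89 to 15.01), 5 of 9 T cell and 4 of 7 NK cell genes were lower, and 8 of 8 erythroid genes were higher (14.02 to 14.27 against 12.55 to 12.59). Of the plasma cell genes, 3 of 5 were lower at 0 h (11.85 to 11.86 against 13.10 to 13.21), and the neutrophil list, with 2 of 8 genes higher and 1 lower, summed to 13.05 to 13.11 against 12.68 on both wild type arrays. At 1 h, 7 of 9 T cell, 5 of 7 NK cell and 2 of 5 plasma cell genes were lower (plasma cell list 11.90 to 12.10 against 13.03 to 13.33), 3 of 8 neutrophil genes were higher and 1 lower, and 8 of 8 erythroid genes were higher. Between genotypes, 2.32% of all genes were called at 0 h and 4.28% at 1 h (6.99% and 12.9% with the block).

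Markers also moved with time in wild type. From 0 to 1 h, 9 of 11 macrophage genes fell (13.15 to 13.47 against 14.89 to 15.01 at 0 h). By 3 h, when Dusp6 had fallen, 10 of 11 macrophage and 6 of 7 dendritic cell genes were below 0 h, with sums of 12.05 to 12.11 and 11.01 to 11.05, the latter against 13.26 to 13.37. By 24 h, when Dusp1 was also below its start, 11 of 11 macrophage genes (12.43 to 12.54), 7 of 8 neutrophil genes (10.74 to 10.78 against 12.68), 9 of 9 T cell genes (11.24 to 11.29 against 13.17 to 13.53) and 6 of 7 dendritic cell genes (10.39 to 10.41) had fallen. In TAK1-deleted cells, 10 of 11 macrophage genes had also fallen by 3 h (12.01 to 12.29 against 14.84 to 14.92 at 0 h). Among all genes, 24.5%, 44.1% and 43.8% were called in wild type at 1, 3 and 24 h, and 41.7% in TAK1-deleted cells at 3 h. With the block these shares were 43.2%, 59.0%, 58.2% and 56.3%. The part of these marker shifts in the changes of Dusp1, Dusp4, Dusp5 and Dusp6 was not tested.

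**Figure D4:**
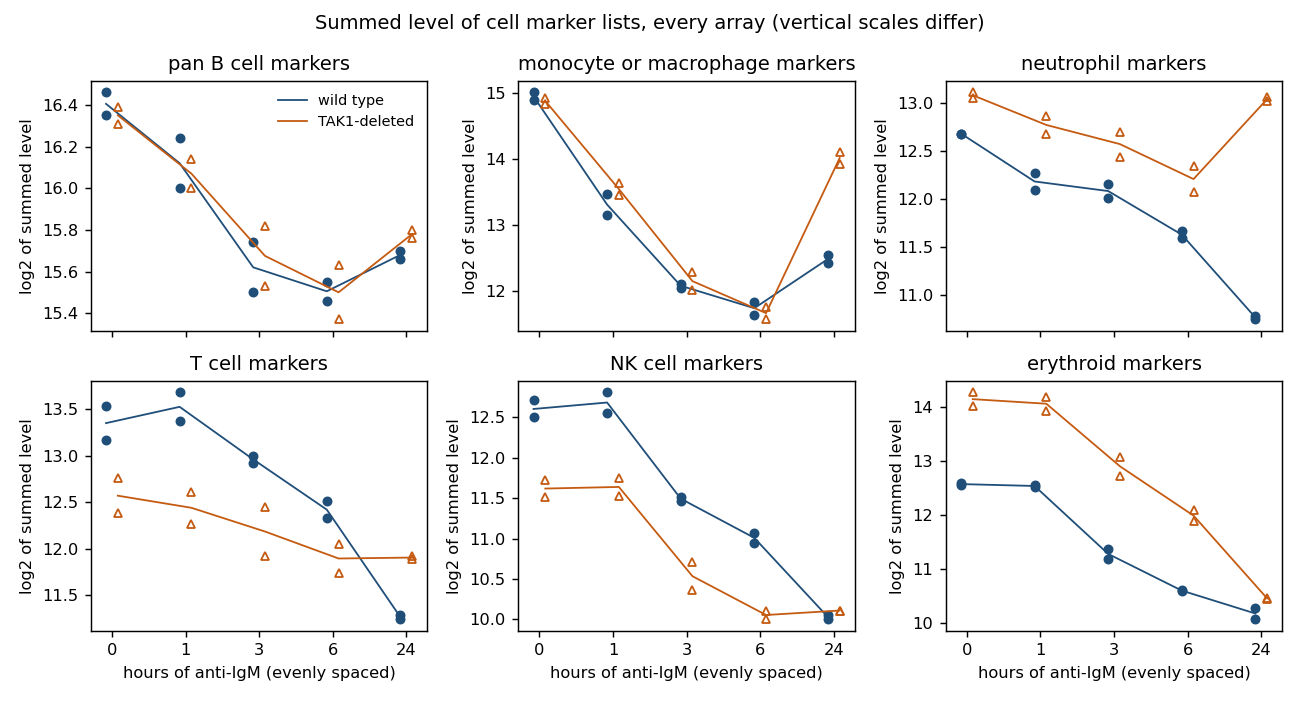
Log2 of the summed level (vertical axis, a separate scale in each panel) of 6 lists of cell markers on each array against hours of anti-IgM (evenly spaced), circles for wild type and triangles for TAK1-deleted, with lines through the mean of the 2 arrays. The macrophage and neutrophil lists of the 2 genotypes part most at 24 h (13.93 to 14.10 against 12.43 to 12.54 for macrophages), and the erythroid list is higher in TAK1-deleted cells from 0 h.

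Across the 20 arrays, Dusp1, Dusp2, Dusp10 and Dusp16 followed one another, with Pearson r of 0.88 to 0.923 in each pair. Dusp4 correlated with Dusp5 at 0.761, with Dusp6 at -0.738, with Dusp10 at 0.039 and with Dusp16 at 0.038. The arrays share times and genotypes, so these are descriptions of shape. Among all genes tested, those most like Dusp1 were Jun (r = 0.976), Csrnp1 (0.961) and Mxd1 (0.959). For Dusp2 they were Impact (0.974), Sik1 (0.972) and Dnajb5 (0.97), and for Dusp4 Orai1 (0.966), St13 (0.965) and Rilpl2 (0.962). For Dusp5 they were Ccr7 (0.973), Grasp (0.959) and Il1r2 (0.95), and for Dusp6 Atp8a1 (0.989), Rasgrp2 (0.978) and Cyp27a1 (0.978). For Dusp10 they were Tmem167b (0.957), Ythdf3 (0.954) and Csrnp1 (0.953), and for Dusp16 Dnajb1 (0.981), Dnajb4 (0.979) and Klf6 (0.976).

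The values of Jun, an AP-1 gene, are given as the nearest to Dusp1. Since Jun was picked for its likeness to Dusp1 over the same 20 arrays, its difference between genotypes at 24 h is not independent of that of Dusp1. It read 10.15 and 9.67 in wild type at 0 h and 8.57 and 8.18 at 24 h, against 9.41 and 8.99 and then 9.67 and 9.33 in TAK1-deleted cells. At 24 h Jun was higher in TAK1-deleted cells by 1.12 ± 0.22 (adjusted p = 0.00313), and its change from 0 h differed between genotypes by 1.83 ± 0.31 (adjusted p = 0.00137).

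Of the other MAP kinase phosphatases, 1 of 3 rose and 1 fell at 1 h in each genotype. Among all genes, 24.5% were called at 1 h in wild type and 19.3% in TAK1-deleted cells. Dusp8, whose product acts on JNK and p38, read 7.46 and 7.49 in wild type at 0 h and 11.35 and 11.13 at 1 h, a change of 3.76 ± 0.14 (adjusted p = 3.39e-11), against 7.44 and 7.54 and then 10.68 and 10.34 in TAK1-deleted cells. The 0 h values of Dusp8 in both genotypes lay close to 7.45, the filter on dim probe sets. Its rise therefore starts from a dim signal. At 1 h Dusp8 was lower in TAK1-deleted cells by -0.73 ± 0.14 (adjusted p = 0.00595), the same direction as Dusp4. Dusp7, a cytoplasmic phosphatase of ERK like Dusp6, fell by 1.32 ± 0.18 in wild type at 1 h (adjusted p = 5.28e-05) and by 1.50 ± 0.18 in TAK1-deleted cells (2.04e-05), while Dusp9 read 0.10 (adjusted p = 0.754).

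Among 9 atypical dual-specificity phosphatases tested of 14, 2 rose and 2 fell in wild type at 1 h, without and with the block. These are 44.4% of the genes tested, beside 24.5% of all genes (43.2% with the block). Dusp3 rose by 1.59 ± 0.21 (adjusted p = 3.4e-05) and Dusp14 by 1.43 ± 0.19 (3.19e-05). Dusp14 read 0.27 in TAK1-deleted cells at 1 h (adjusted p = 0.385) and was lower there than in wild type at 1 h by -1.08 ± 0.19 (adjusted p = 0.0024) and at 24 h by -0.63 (0.0373). Dusp12 and Dusp19 fell in wild type at 1 h, by 0.73 and 0.60. Of 7 other phosphatases that act on MAP kinases, 2 rose in wild type at 1 h and 0 fell. That is 28.6%, near the 24.5% called among all genes. With the block 3 rose and 0 fell, where 43.2% of all genes were called.

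Of the kinases of the cascade, 1 of 8 MAP kinases, 1 of 6 MAP2 kinases, 2 of 15 MAP3 kinases and 1 of 7 MAP kinase-activated kinases rose in wild type at 1 h and 0 fell. These are 12.5%, 16.7%, 13.3% and 14.3% of the genes of each list, beside 24.5% called among all genes (43.2% with the block). With the block the counts were 2 up and 1 down, 1 up, 5 up and 1 down, and 2 up and 2 down. Mapk6, an atypical MAP kinase, rose by 2.20 ± 0.14 (adjusted p = 1.43e-08). Map3k8, a MAP3 kinase that leads to ERK, rose by 1.29 ± 0.15 (adjusted p = 9.48e-06) in wild type and read 0.24 in TAK1-deleted cells (0.331, or 0.0448 with the block), a difference between genotypes at 1 h of -1.06 ± 0.15 (0.000425). By 24 h in wild type, Mapk11 and Mapk14, both p38 kinases, had fallen by 1.85 ± 0.33 (adjusted p = 0.000231) and 1.05 ± 0.20 (0.000515), and Map2k6, which activates p38, by 1.23 ± 0.20 (9.98e-05), while Map2k3 rose by 0.84 ± 0.13 (7.57e-05).

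ERK-responsive early genes rose with the phosphatases. In wild type at 1 h, 17 of 20 rose and 1 fell (median 2.22 against -0.05 over all genes), led by Fosb at 5.12 ± 0.17 (adjusted p = 1.19e-11), Egr2 at 3.88 ± 0.22 (3.91e-09), Nr4a1 at 3.32 ± 0.15 (3.5e-10) and Jun at 2.89 ± 0.22 (8.99e-08). The counts at 1 h were the same in TAK1-deleted cells, with Fosb at 4.85 ± 0.17, Egr2 at 4.20 ± 0.22 and Nr4a1 at 3.64 ± 0.15. Of the 20, 3 were lower in TAK1-deleted cells at 1 h (6 with the block): Phlda1 by -1.42 ± 0.27 (adjusted p = 0.00507), Fosl1 by -0.83 ± 0.19 (0.0192) and Ier2 by -0.66 ± 0.17 (0.0314). At 24 h, 3 were higher there and 1 lower (5 and 1 with the block): Jun as above, Btg2 by 0.81 ± 0.08 (adjusted p = 8.6e-06), Ier5 by 0.45 ± 0.14 (0.0453) and Myc by -0.75 ± 0.15 (0.00412). Between genotypes, 4.28% of all genes were called at 1 h and 12.2% at 24 h (12.9% and 28.8% with the block). Against 0 h, 24.5% were called at 1 h in wild type and 19.3% in TAK1-deleted cells. This list was chosen with earlier results of these data known.

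Of 11 Sprouty, Spred and other ERK feedback genes, 6 rose and 0 fell in wild type at 1 h (7 and 2 with the block). The share of all genes called was 24.5% (43.2% with the block). Spry1 rose by 1.16 ± 0.13 (adjusted p = 7.39e-06) and Spry2 by 0.90 ± 0.10 (8.28e-06). Spry2 was still up at 24 h, by 1.17 ± 0.10 (adjusted p = 2.1e-07), and was then lower in TAK1-deleted cells by -0.39 ± 0.10 (0.0195). The gene of this list that was higher in TAK1-deleted cells at 24 h was Ier3, by 0.53 ± 0.17 (adjusted p = 0.0488).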

How the data were processed

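RNA from 20 samples was measured on arrays, 1 array a sample, 2 for each of 10 groups of genotype and time, grouped by the labels. Per the submitters' processing notes, which name RMA and Affymetrix Expression Console 1.0, the deposited values are RMA signals, and their range is that of a log2 scale. Genome build: not given in the sources used here. RMA equalises the arrays, so a shift of the whole transcriptome would not show. No depth applies to arrays, and their number limits the precision.

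Probe sets were named from the platform annotation: 21789 of 35556 had 1 symbol, 1621 several and 12146 were unlisted and unnamed here. Probe sets of 1 symbol that reached 7.45, the median of all values, on at least 2 arrays were kept, the highest by mean for each gene, which left 11968 genes. All groups were fitted together in limma 3.58.1 (R 4.3.3) with lmFit and eBayes with an intensity trend, on 10 residual degrees of freedom. The 23 contrasts were adjusted one by one by the method of Benjamini and Hochberg over all genes, two-sided, at 0.05. The scripts were tested on simulated data. Motifs were counted in RefSeq promoters (GRCm38.p6).

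The replicate numbers come from the samples' descriptions. Deviations of same-numbered arrays from their group means correlated at 0.191 to 0.769 (median 0.535) in all 45 pairs of groups, so the numbers were taken to pair the samples and a fit with the number as a block was made.

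The members and gene lists were chosen with earlier results of these data known. Outside the 7 members, genes were named by rule: Map3k7, at most 4 called genes with the largest change for each list and contrast (wild type at 1 and 24 h, and each genotype comparison), and the 3 genes most like each member. Other values of a gene so named, the values of Dusp7, Dusp8, Dusp9 and Jun by array among them, were added after they were seen. Alternatives were median centring, quantile normalization, no filter and a stricter filter on dim probe sets, the mean of a gene's probe sets, no intensity trend and a robust trend, a fit on the groups of the contrast only, the block, and leaving out each array.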

Additional observations from a re-analysis of the deposited data

Results flagged for a closer look

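The change of Dusp1 from 0 to 24 h differed between genotypes by 2.19 ± 0.43 on the log2 scale (limma, adjusted p = 0.00396), 1.61 down in wild type, on both pairs of same-numbered arrays, and 0.59 up in TAK1-deleted cells, on both. That rise in TAK1-deleted cells did not pass by itself (adjusted p = 0.18, or 0.00997 with the block). At 0 h Dusp1 already read lower in TAK1-deleted cells, by -0.99 (adjusted p = 0.131, or 0.000832 with the block). The change of Dusp5 from 0 to 24 h differed by 1.14 ± 0.28 (adjusted p = 0.0175). Without single arrays it lay between 0.94 and 1.34, and as given above the call was not always kept. Both genes stand here because the genotypes' responses differed in the test of the difference itself.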

How the results depend on the processing

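Of 161 comparisons of a member, 58 passed the threshold, 48 of these under every alternative tried and 10 not under some, and none of the 58 changed sign. Of the 103 that did not pass, 38 passed under at least 1 alternative. The wild type count against 0 h was 18 of 28 (16 to 18 without single arrays, 23 with the replicate block) and the TAK1-deleted count 19 of 28 (18 to 20, and 22). Between genotypes 3 of 35 passed, 9 after quantile normalization, 5 in the fits on the groups of the contrast only, 16 with the replicate block, and 2 to 6 without single arrays. The difference in response gave 2 of 28, 6 with the block and 1 to 3 without single arrays. Steps gave 16 of 42, 29 with the block and 15 to 19 without single arrays. The block changed no call of a member other than those given with its value in the report or counted there. Centring each array on its median put the median change of all genes at 0.11 in wild type at 6 h, 0.13 at 24 h, and 0.10 in TAK1-deleted cells at 24 h. With 2 arrays a group, a lone array left in a group was assumed to vary like the other groups. The causes of these differences were not tested.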
